A study of Mus musculus with 2 samples.

Results

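Insulin-high, beta-like cells of the embryonic mouse pancreas in 2 libraries of single cells were selected on the number of insulin molecules that each cell barcode carried. A barcode entered this insulin gate when it held at least 1000 unique molecular identifiers (UMIs, each counted as 1 captured transcript), at most 20% mitochondrial UMIs, at least 10 UMIs of Ins1 and Ins2 together, and fewer than 15 UMIs of the acinar genes Cpa1, Ctrb1, Pnliprp1 and Clps together. The gate held 161 of the 1609 barcodes that passed the UMI and mitochondrial limits, out of 1635 deposited barcodes. Library 1 gave 47 of 528 barcodes, which is 8.90% (95% exact binomial interval 6.61% to 11.7%), and library 2 gave 114 of 1081, which is 10.5% (8.78% to 12.5%). Both libraries were of wild-type pancreas at E14.5, and before encapsulation the endocrine cells had been enriched by flow sorting on an eGFP reporter of Neurog3 (Ngn3eGFP, low and high), so the shares describe sorted cells and not the whole organ. The sources used here do not say whether the libraries came from separate embryos or pools, so every p-value below measures only the spread between these samples, which may be technical.

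Beta cells make, store and release insulin. In the mouse pancreas they arise from progenitors that transiently express the transcription factor Neurog3, and their precursors pass through a hormone-poor endocrine state before insulin transcripts accumulate. Mice carry a pair of insulin genes, Ins1 and Ins2. Preproinsulin enters the endoplasmic reticulum, where it is folded and its disulfide bonds form, and it is then cut by prohormone convertases in secretory granules that also carry amylin, the product of Iapp. The transcription factors Pdx1 and Neurod1 are known to bind A-boxes and E-boxes of insulin promoters.

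The promoters of Ins1, which defined the gate, and of Iapp, Nnat and Npy are shown. The last 3 are granule or beta-cell genes whose levels stood far above those of the other cells. Their transcripts were also higher in the cells richest in insulin within the gate, as described below, for Npy as a description only. The 250 bases before each start were taken from the RefSeq promoter table of build GRCm38.p6. Capitals mark the E-box letters CATCTG (or CAGATG) and the A-box core TAAT (or ATTA) on either strand, and overlapping matches were counted separately. Ins2 is named only.
Ins1 (chr19:52264047-52264296, plus strand): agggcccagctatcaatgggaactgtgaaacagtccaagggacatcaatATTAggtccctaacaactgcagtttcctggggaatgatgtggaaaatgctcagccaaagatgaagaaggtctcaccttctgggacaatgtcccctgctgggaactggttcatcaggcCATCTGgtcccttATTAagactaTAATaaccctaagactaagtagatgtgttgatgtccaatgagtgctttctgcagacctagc
Iapp (chr6:142298175-142298424, plus strand): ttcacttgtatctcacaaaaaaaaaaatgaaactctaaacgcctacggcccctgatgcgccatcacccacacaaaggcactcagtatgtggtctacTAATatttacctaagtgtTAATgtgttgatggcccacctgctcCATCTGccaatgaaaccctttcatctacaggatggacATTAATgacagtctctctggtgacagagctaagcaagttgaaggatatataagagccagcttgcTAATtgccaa
Nnat (chr2:157559828-157560077, plus strand): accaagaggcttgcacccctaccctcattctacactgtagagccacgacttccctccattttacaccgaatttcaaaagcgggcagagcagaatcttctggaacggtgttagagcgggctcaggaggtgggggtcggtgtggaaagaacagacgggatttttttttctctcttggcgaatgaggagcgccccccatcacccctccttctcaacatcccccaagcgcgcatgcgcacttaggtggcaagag
Npy (chr6:49822460-49822709, plus strand): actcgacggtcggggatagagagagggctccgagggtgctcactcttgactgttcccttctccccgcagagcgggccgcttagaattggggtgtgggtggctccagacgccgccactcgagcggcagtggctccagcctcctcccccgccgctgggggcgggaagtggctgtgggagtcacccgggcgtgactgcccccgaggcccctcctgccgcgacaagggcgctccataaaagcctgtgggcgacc
The Ins1 window held 1 E-box and 3 A-box cores, and the Iapp window held 1 E-box and 5 A-box cores. Neither set of letters was in the Nnat or Npy window. Of 32851 promoters in the table, 4745 (14.4%) held the E-box letters, 18041 (54.9%) the A-box core and 2927 (8.91%) both. Matches describe these windows and were not tied to binding.

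The insulin-gated cells summed to 206555 UMIs in library 1 and 403656 in library 2. Their median depth was 4173 and 3522.5 UMIs, against 3222 and 2798 UMIs in all other cells that passed, and their median mitochondrial share was 2.99% and 2.85%, against 4.02% and 3.80%. No barcode of the gate was shared by the libraries, among 3 barcodes that were, and 4 gated barcodes were called doublets and kept. Within the gate, the levels of 4760 genes at 50 or more CPM (UMIs scaled to a common library total) gave a Pearson r of 0.842 between the libraries on a log2 scale (across genes, which are not independent replicates), and 91.7% of them lay within 2-fold. The name beta-like was checked on markers outside the insulin genes. A UMI of Iapp was found in 91.5% and 94.7% of gated cells, of Nkx6-1 in 76.6% and 81.6%, and of Slc2a2, the glucose transporter of the rodent beta cell, in 59.6% and 57.9%. In macrophage-marked barcodes, which should lack these transcripts, Iapp was found in 0 of 7 (which allows a share of up to 42.9%) and 1 of 47, Nkx6-1 in 0 of 7 and 5 of 47, and Slc2a2 in 0 of 7 and 1 of 47, at median depths of 2724 and 2970 UMIs. Mafa, which marks mature mouse beta cells, had no UMI in the gate, which allows shares of up to 6.38% and 2.63% of cells with a UMI. Ucn3, another gene of mature beta cells, had 3 UMIs in each library.

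Insulin was held by few cells, and unevenly among them. The gate itself used these counts, so they are a description. Gated cells carried a median of 63 insulin UMIs in library 1 (lowest 10, highest 585) and 75.5 in library 2 (lowest 11, highest 1049), and the other cells a median of 0 in both. The gate held 96.5% and 97.7% of all insulin UMIs of the libraries. Insulin made up 3.28% and 4.0% of all UMIs of the gated cells. In single cells the share had a median of 2.11% in library 1 (lowest 0.109%) and 2.61% in library 2 (lowest 0.278%, highest 21.7%). The 5 and 11 cells with the most insulin held 39.4% and 37.8% of the gate's insulin. Few cells lay near the threshold. The 6 cells just inside it, with 10 to 14 insulin UMIs, had 1003 CPM of Iapp, 502 CPM of Pdx1 and 347 CPM of Gcg, against 1760 CPM of Iapp, 383 CPM of Pdx1 and 3520 CPM of Gcg in the 20 cells just outside it, with 5 to 9 insulin UMIs.

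**Figure D1:**
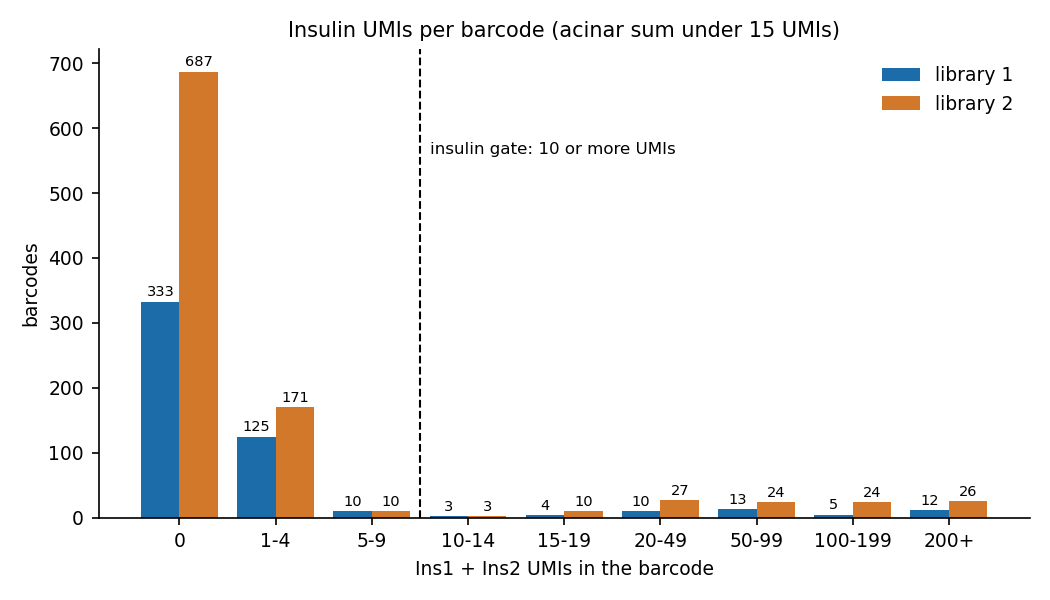
Number of barcodes (vertical axis) by their Ins1 + Ins2 UMIs (horizontal axis, bins of unequal width), for barcodes that passed the UMI and mitochondrial limits with an acinar sum under 15, in library 1 (blue) and library 2 (orange). The dashed line is the gate at 10 UMIs, where 10 barcodes of each library lay in the bin just below it and 3 of each in the bin just above it, against 333 and 687 barcodes with no insulin UMI.

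At least 1 UMI of Ins1 and of Ins2 was found in all 47 and all 114 cells. Ins1 supplied 50.1% of the insulin UMIs in library 1 (exact binomial interval 48.9% to 51.3%) and 48.9% in library 2 (48.2% to 49.7%). These intervals, like all binomial intervals here, cover counting error only. The genes followed each other from cell to cell, with a Spearman correlation of 0.970 over 47 cells and 0.932 over 114 cells, given as a description because both were used by the gate and share each cell's depth. When the gated cells of each library were split into tertiles (3 groups of equal or nearly equal size) by the share of insulin among their UMIs, Ins1 made up 50.7% and 49.2% of insulin UMIs in the upper tertile, 50.9% and 49.3% in the middle tertile, and 42.9% and 45.5% in the lower tertile. The interval of the lower tertile in library 1 was 38.4% to 47.4%, against 49.3% to 52.0% in the upper tertile. In library 2 the intervals overlapped, at 42.6% to 48.33% in the lower tertile and 48.28% to 50.1% in the upper. The gate and the split used these counts, so the shares are a description.

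**Figure D2:**
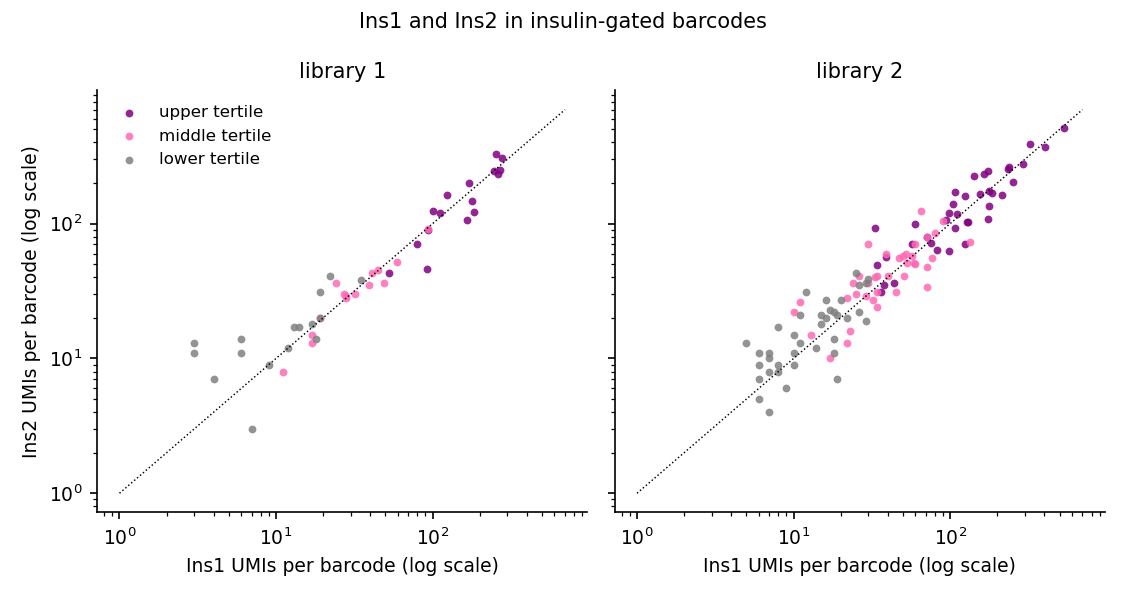
Ins2 against Ins1 UMIs in each insulin-gated barcode (both axes logarithmic), in library 1 and library 2, coloured by upper (purple), middle (pink) or lower (grey) tertile of the insulin share, with a dotted line at equal counts. Points follow the line in both libraries, and Ins1 made up 42.9% and 45.5% of the insulin UMIs of the grey points.

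Second hormones were rare in the gate, apart from Pyy and the amylin gene. At a level of 5 or more UMIs, Gcg (glucagon) was found in 1 of 47 and 1 of 114 gated cells, Ppy in 1 and 1, Sst in 1 and 2, and Ghrl in none of either library, which allows shares of up to 6.38% and 2.63%. Pyy, a peptide of several early islet cell types, reached 5 UMIs in 14 of 47 cells (29.8%, exact interval 17.3% to 44.9%) and in 23 of 114 cells (20.2%, 13.2% to 28.7%). Iapp reached it in 34 of 47 and 81 of 114 cells. A single UMI is weaker evidence, because free RNA in the droplets also gives UMIs. Gcg had a UMI in 21.3% and 19.3% of gated cells, against 14.3% and 19.1% of macrophage-marked barcodes, so the shares were close in library 2. There, 16 of the 24 Gcg UMIs of macrophage-marked barcodes lay in 1 barcode. Whether this set was free of glucagon cells was not tested. Pyy had a UMI in 66.0% and 52.6% of gated cells, against 28.6% and 21.3% of macrophage-marked barcodes. With each barcode thinned to 1000 UMIs the shares for Pyy were 36.2% and 35.1% in gated cells, against 14.3% and 8.51%. The macrophage-marked share of library 1 rests on 7 barcodes.

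The gated cells were first set against all other cells that passed, with UMIs summed per library and tested in edgeR (quasi-likelihood, library as a block, Benjamini-Hochberg adjusted p under 0.05). Levels are CPM on scaled library sizes without the 6 genes of the gate, given for library 1 and then library 2, and folds are log2 folds ± SE of the insulin gate over the other cells. Of 14655 genes tested, 598 were higher (4.08%) and 525 lower (3.58%) in the gate, 7.66% in all, and the median log2 fold over all of them was -0.01. Of 11 tested beta-lineage transcription factors, 6 were higher and 2 lower, with a list median of 0.50. Pdx1, which is needed for pancreas formation and beta-cell identity, had 352 and 606 CPM in the gate, against 104 and 141 CPM in the other cells, a log2 fold of 1.96 ± 0.17 (edgeR adjusted p = 9.3e-07). It was higher in the gate in each library, and the groups did not overlap.

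Other members of that list were split. Mnx1, a homeobox factor needed in beta cells, rose by 2.22 ± 0.36, Mlxipl, which encodes the glucose-responsive factor ChREBP, by 2.05 ± 0.19, and Nkx6-1, which keeps beta cells from an alpha-like programme, by 1.28 ± 0.14 on the log2 scale. Meis2 rose by 0.50 ± 0.14, a call that was lost under 6 of 9 alternatives. Pax4, a factor of early beta and delta precursors, fell to 0 and 18.8 CPM in the gate, against 95.2 and 75.5 CPM in the other cells (-2.79), and lost its call in DESeq2 and when the other cell classes were weighted equally. Nkx2-2 fell by 0.63 on the log2 scale, a call lost in DESeq2, without the block and after thinning to 1000 UMIs. Nkx6-3, Glis3 and Rfx6 did not pass. Neurog3, which marks the progenitors, fell to 92.8 and 105 CPM, against 745 and 696 CPM in the other cells (-2.84 ± 0.18, adjusted p = 1.6e-08), while 3 of 19 tested factors shared by endocrine types rose, among them Tshz1 (1.54) and Pax6 (1.14), and 4 fell. Of 8 tested factors of the alpha, delta, PP and epsilon lineages, 5 fell and 1 rose.

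Of 23 tested genes of insulin processing and the granule, 18 rose and 1 fell, with a list median of 1.88. Iapp, which encodes amylin, had 3103 and 5186 CPM in the gate, against 168 and 457 CPM in the other cells (3.82 ± 0.14, adjusted p = 4.99e-11). Nnat, an imprinted gene whose product aids signal peptide cleavage of preproinsulin in mouse beta cells, reached 4363 and 4974 CPM, against 219 and 209 CPM (4.45 ± 0.11, adjusted p = 2.1e-13). Npy, neuropeptide Y, had 147 and 295 CPM, against 7.46 and 5.84 CPM. With 13 and 17 UMIs in the other cells, Npy passed the filter through the gate alone, so its levels are a description. The convertase genes Pcsk2 (2.0 ± 0.11) and Pcsk1 (1.88 ± 0.24) rose, as did Cpe (1.41 ± 0.13), which trims the cut ends of proinsulin. Ero1lb, an oxidase that helps proinsulin disulfide bonds form, rose by 3.24 ± 0.23, the granule zinc transporter gene Slc30a8 by 2.47 ± 0.41, and the granins Scg2, Scg3, Chga and Chgb by 2.47, 2.24, 1.26 and 1.01. Cck fell by 2.39 on the log2 scale, and its call was lost after thinning. Vgf, Ptprn2, Pam and Tmem27 did not pass.

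Of 28 tested genes of the exocytosis machinery, 12 rose and none fell, and of 28 tested genes of glucose sensing and stimulus coupling, 9 rose and 1 fell. Sytl4, which encodes granuphilin, a granule docking protein, had 537 and 585 CPM in the gate, against 32.7 and 31.9 CPM in the other cells (4.12 ± 0.19, adjusted p = 6.41e-10). Slc2a2 had 420.2 and 381 CPM, against 68.3 and 54.9 CPM (2.71 ± 0.19). The fatty acid receptor gene Ffar1 rose by 2.84 ± 0.27 and Atp2a2, which encodes the calcium pump SERCA2 of the endoplasmic reticulum, by 2.46 ± 0.11. Abcc8, the sulfonylurea receptor subunit of the ATP-sensitive potassium channel, rose by 1.56 ± 0.20. Ldha, lactate dehydrogenase A, which mature beta cells are known to keep low, fell to 14.7 and 16.1 CPM, against 111 and 156 CPM (-3.15 ± 0.37), and lost its call with equal weight of the other classes.

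Of 40 tested genes of folding and translocation in the endoplasmic reticulum, 30 rose and none fell, 38 had a positive fold, and the list median was 1.21. The summed level of the 41 listed genes in the table was 20701 and 23169 CPM in the gate, against 7872 and 9755 CPM in the other cells. Hspa5, the chaperone BiP, had 2306 and 2927 CPM, against 642 and 867 CPM (1.80 ± 0.10, adjusted p = 5.33e-09). Manf, a secreted stress-responsive protein of the endoplasmic reticulum, rose by 2.05 ± 0.12 and Calr, calreticulin, by 1.63 ± 0.10. Xbp1, a transcription factor of the unfolded protein response, rose by 1.09 ± 0.25.

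Many genes of dividing and progenitor cells fell. Of 42 tested G2 and M phase genes 19 fell and 1 rose, of 32 S phase genes 9 fell and none rose, and of 20 progenitor and Notch genes 9 fell and none rose. Hmgb2 fell to 132 and 134 CPM, against 466 and 644 CPM (-2.09 ± 0.18), and the G2 and M phase gene that rose was the tubulin gene Tubb4b (1.11). Of 17 tested cell cycle brakes and D cyclins, 9 fell and none rose, among them Cdkn1a, which encodes p21, with 87.9 and 75.1 CPM in the gate, against 383 and 424 CPM (-2.34 ± 0.21). Of 22 tested trunk and duct genes 13 fell and none rose, among them Spp1 (-3.07), Mt2 (-3.66), Sox9 (-1.80) and Vim (-3.19). Immediate-early and heat shock genes, which respond to tissue dissociation, fell in 9 of 27 tested and rose in none, and their summed level was 5091 and 6651 CPM in the gate, against 7757 and 9405 CPM in the other cells. Macrophage markers, summed, stood at 255 and 372 CPM in the gate, against 366 and 1000.2 CPM in the other cells. The other cells were a mixture, of which 243 of 481 and 557 of 967 lay outside the glucagon, Ghrl and Pyy, Chgb and Neurog3 gates, and with the 5 other classes weighted equally the calls became 497 higher and 228 lower. With no filter on low counts they became 552 higher and 865 lower.

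The insulin gate was next set against another hormone-positive class, the glucagon-gated cells (at least 5 Gcg UMIs, outside the insulin gate), of which there were 30 cells in library 1 and 58 in library 2. In a fit of all cell classes, 169 of 10313 genes were higher in the insulin gate (1.64%) and 126 lower (1.22%), 2.86% in all, around a median log2 fold of 0.00. Folds in this and the next comparison are those of the insulin gate over the class named, and both comparisons use the same insulin-gated sums. Factors known to separate the alpha and beta lineages in the mouse differed. Nkx6-1 had 583 and 695 CPM in the insulin gate, against 50.7 and 77.9 CPM in the glucagon gate (3.28 ± 0.30, edgeR adjusted p = 2.56e-11). Pdx1 had 356 and 582 CPM, against 59.2 and 59.9 CPM (3.0 ± 0.33, adjusted p = 3.56e-09). In the other direction, Irx1 had 4.94 and 7.72 CPM in the insulin gate, against 329.7 and 264 CPM in the glucagon gate (-5.42 ± 0.54). Irx2 fell by 4.50 on the log2 scale, with 3 and 4 UMIs in the insulin gate, against 22 and 58 UMIs in the glucagon gate. The sizes of the Irx1 and Irx2 folds rest on few UMIs in the insulin gate. Isl1, which both classes expressed, fell by 1.04. It had a UMI in 57.4% and 61.4% of insulin-gated cells, against 73.3% and 81.0% of glucagon-gated cells.

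Of 22 tested granule genes 7 were higher in the insulin gate and 2 lower, with a list median of 0.46, and of 24 exocytosis genes 2 were higher and 1 lower. Pcsk2 had 1913 and 2106 CPM in the insulin gate, against 1336 and 1911 CPM in the glucagon gate, and did not pass (log2 fold 0.33 ± 0.14, adjusted p = 0.305), nor did Cpe, Scg5 or Pcsk1. Nnat had 4415 and 4772 CPM, against 203 and 186 CPM (4.57 ± 0.18, adjusted p = 7.89e-24). Sytl4 was higher by 4.48 ± 0.42, Slc2a2 by 4.20 ± 0.44, and Ero1lb by 3.11 ± 0.40 on the log2 scale. In the glucagon gate Slc2a2 had 3 and 3 UMIs and Ero1lb 6 and 6, so the sizes of their folds rest on few UMIs. Iapp was higher by 1.57 ± 0.18, but it differed between libraries in the glucagon gate (575 and 2498 CPM), the folds of single libraries were 2.45 in library 1 and 0.99 in library 2, and the call was lost in DESeq2 and without the block. Tmem27, a membrane protein of islet cells, was lower at 138 and 144 CPM, against 888 and 1354 CPM (-3.0 ± 0.24), as was Pam (-1.32 ± 0.20), which amidates peptides. Of 40 tested endoplasmic reticulum genes, 22 were higher in the insulin gate and none lower, with a list median of 1.08, among them Calr (1.58 ± 0.14), Hspa5 (1.78 ± 0.18) and Sec61b (1.56 ± 0.18), a subunit of the translocation channel.

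Outside the lists, the largest falls against the glucagon gate included Lmtk3, with 19.8 and 5.15 CPM in the insulin gate, against 727 and 335 CPM (-5.51 ± 0.47), Sdhc, a subunit of mitochondrial succinate dehydrogenase, with 69.2 and 149 CPM, against 1006 and 1282 CPM (-3.32 ± 0.24), and Hoxd3 and Wnk3 (-3.54 and -3.14). Hoxd3, Lmtk3 and Wnk3, like Nnat, Manf, Mlxipl, Atp2a2, Cpne5 and Trp73os, have exons that overlap those of other genes, and whether the counting used strand is not given in the sources used here, so their reads may be shared. Peg10, an imprinted gene, had 188 and 134 CPM in the insulin gate, against 1784 and 2384 CPM (-3.76 ± 0.22). The largest rises included Adra2a, the adrenergic receptor that restrains insulin release, with 227 and 309 CPM, against 8.45 and 24.0 CPM (3.99 ± 0.57). The size of that fold rests on few UMIs in the glucagon gate. Defb9 and Syndig1l had no UMI in the glucagon gate, against 174 and 78 UMIs in the insulin gate over both libraries. With no UMI in the glucagon gate these counts are a description, and no fold is given.

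The next comparison asked how the insulin gate differs from endocrine cells without a hormone programme, taken as cells with at least 5 UMIs of the endocrine granin Chgb and low counts of insulin, Gcg, Ghrl, Pyy and Sst (77 and 111 cells). Of 10313 genes, 198 were higher in the insulin gate (1.92%) and 110 lower (1.07%), 2.99% in all, with a median log2 fold of -0.02. Nkx6-1 had 583 and 695 CPM in the insulin gate, against 534 and 508 CPM in the Chgb-gated cells (log2 fold 0.29 ± 0.19, edgeR adjusted p = 0.573). Pdx1 had 356 and 582 CPM, against 276 and 409 CPM (0.45 ± 0.21, adjusted p = 0.357). Neither passed, and Mnx1, Glis3 and Meis2 did not pass either. Of 11 tested beta-lineage factors, 1 was higher and 3 lower. Several factors of earlier endocrine steps were lower. Fev, which marks endocrine precursors in the mouse, had 64.3 and 108 CPM in the insulin gate, against 743 and 821 CPM (-3.10 ± 0.28, adjusted p = 2.91e-11). Runx1t1 fell by 2.42, Neurod1 by 1.12 and Nkx2-2 by 1.09 on the log2 scale, the last with a call lost after thinning. Pax4 had 0 and 18.0 CPM, against 114 and 111 CPM (-3.25 ± 0.53), also with a call lost after thinning. In all, 5 of 18 tested pan-endocrine factors and 5 of 6 tested markers of endocrine precursors were lower and none higher.

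Many granule and folding genes were higher in the insulin gate. Of 22 tested granule genes, 11 were higher and 1 lower, with a list median of 0.97. Iapp had 3139.6 and 4976 CPM in the insulin gate, against 110.4 and 368 CPM in the Chgb-gated cells (4.19 ± 0.21, adjusted p = 4.05e-20), and Nnat 4415 and 4772 CPM, against 409 and 482 CPM (3.36 ± 0.15). Scg2 was higher by 3.46 ± 0.36, Ero1lb by 2.13 ± 0.30 and Pcsk2 by 0.94 ± 0.14. Cpe (0.31 ± 0.16), Pcsk1 (0.65 ± 0.30) and Chga (-0.55 ± 0.18) did not pass. Of 40 tested endoplasmic reticulum genes, 26 were higher and none lower, with a list median of 1.26. Sdf2l1, a cofactor of BiP, had 410.4 and 429.9 CPM in the insulin gate, against 36.8 and 14.6 CPM (4.08 ± 0.37), and Calr, Manf, Hspa5 and Xbp1 were higher by 2.03, 1.91, 1.75 and 1.30. Among glucose-sensing genes, Slc2a2 (2.66 ± 0.30), Ffar1 (2.72 ± 0.45) and G6pc2 (1.98 ± 0.41), the islet glucose-6-phosphatase, were higher. Of 30 tested S phase genes none passed in either direction, and of 39 G2 and M phase genes 2 tubulin genes were higher and none lower. Immediate-early and heat shock genes were lower in 7 of 25 tested and higher in none, with summed levels of 5091 and 6651 CPM in the insulin gate, against 8181 and 9614 CPM in the Chgb-gated cells. Of 12 tested macrophage markers 2 were higher and none lower. The summed level of the 17 markers was higher in the insulin gate in both libraries, at 255 and 372 CPM, against 159 and 147 CPM in the Chgb-gated cells. The part of these RNAs in the comparison was not tested.

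**Figure D3:**
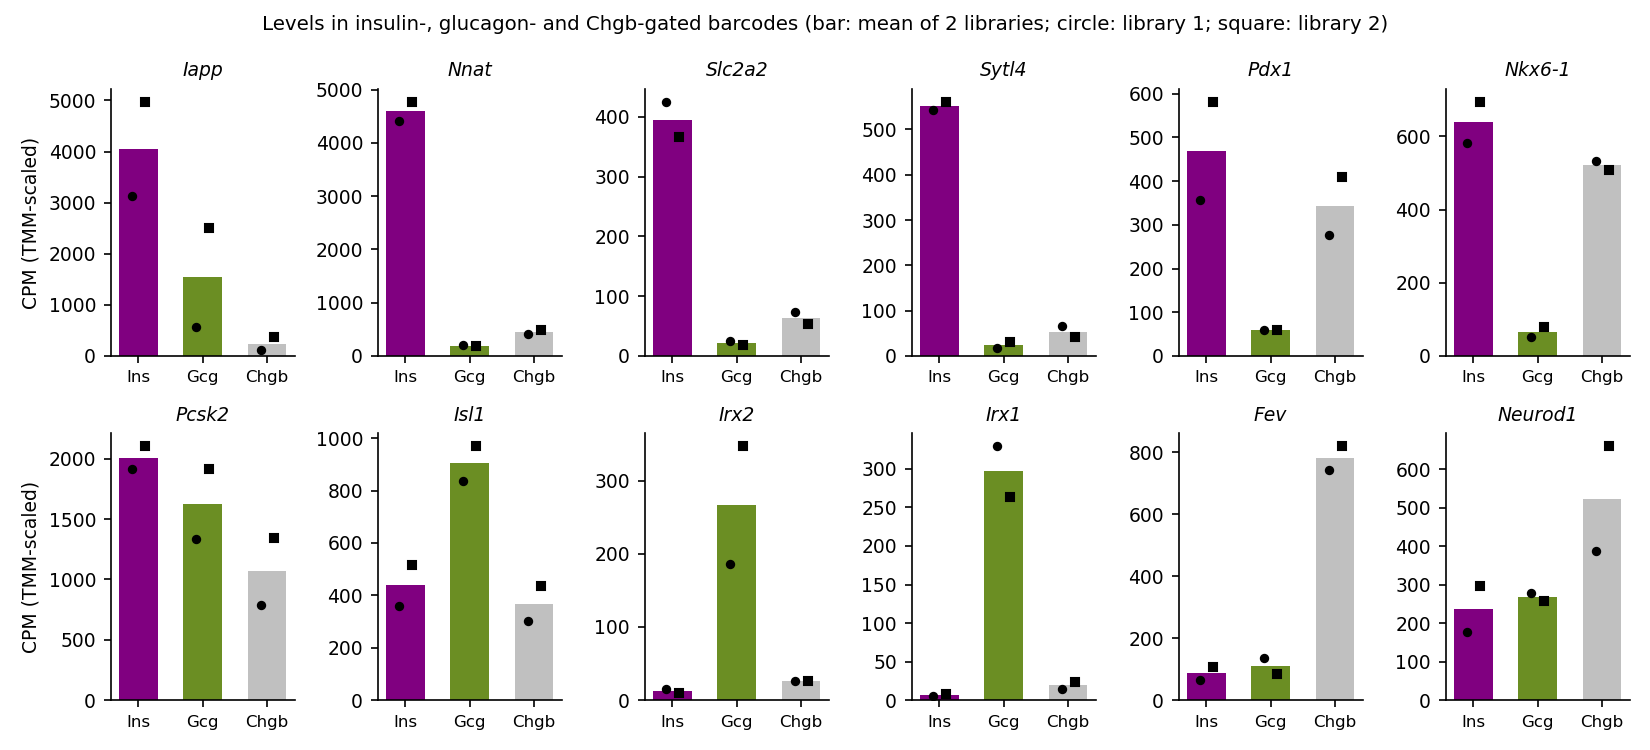
Level of 12 genes in CPM (vertical axes start at 0, scales differ) in insulin-gated (Ins), glucagon-gated (Gcg) and Chgb-gated hormone-low (Chgb) cells, with bars for the mean of 2 libraries, circles for library 1 and squares for library 2. Iapp, Nnat, Slc2a2 and Sytl4 stand highest in the insulin gate, Pdx1 and Nkx6-1 are close in the insulin and Chgb gates and low in the glucagon gate, Irx1 and Irx2 stand highest in the glucagon gate, and Fev and Neurod1 in the Chgb gate.

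**Figure D4:**
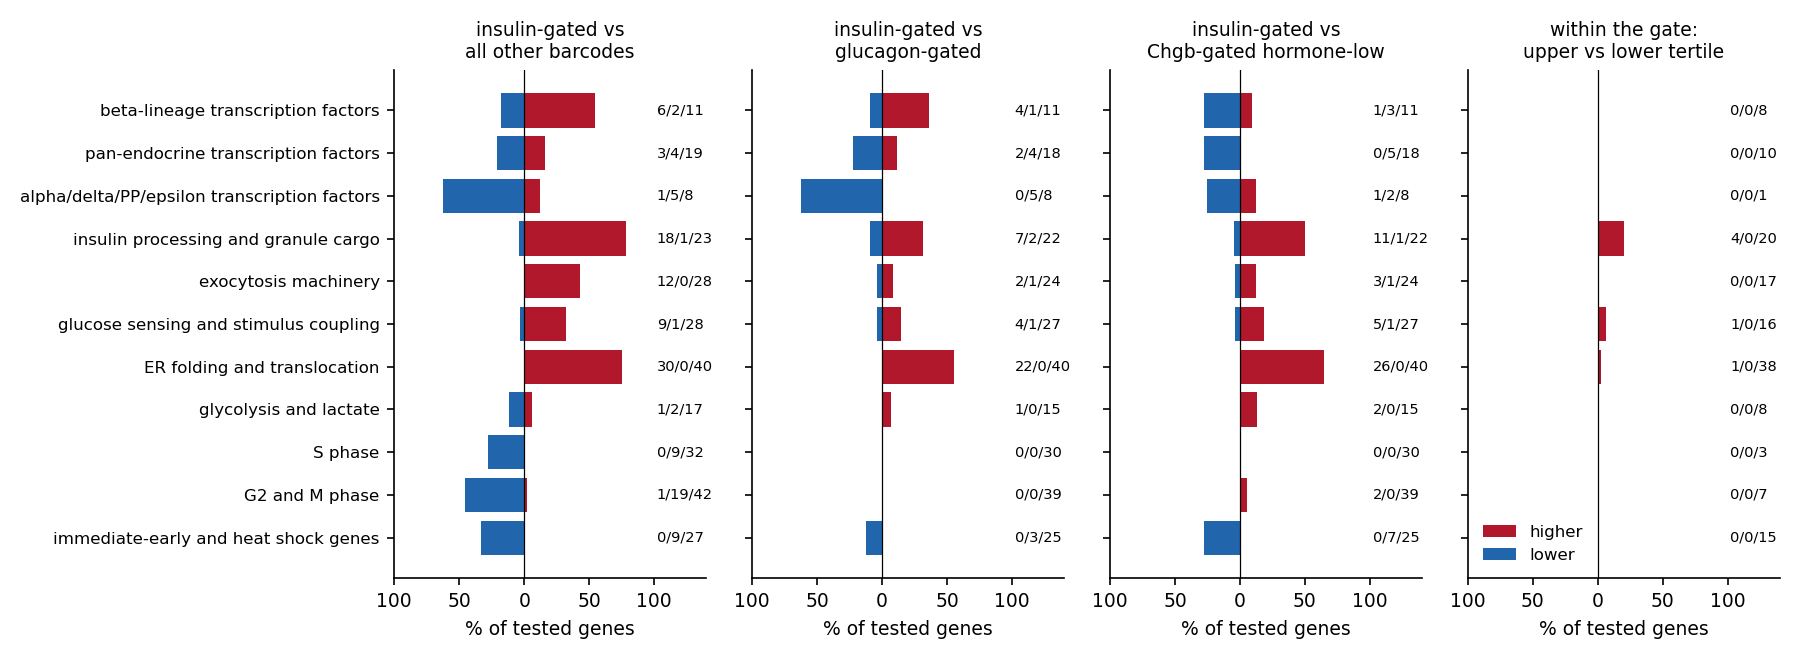
Share of the tested genes of 11 lists that were higher (red) or lower (blue) at an edgeR adjusted p under 0.05 in each of 4 comparisons, with the numbers of genes higher, lower and tested. The list of endoplasmic reticulum (ER) folding reached 30, 22 and 26 of 40 genes higher in the first 3 comparisons and 1 of 38 within the gate, and 9 of 32 S phase genes were lower against all other cells.

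Within the gate, cells rich in insulin were compared with cells poor in it. The upper tertile by insulin share (16 and 38 cells, median insulin share 5.25% and 6.91%) was tested against the lower tertile (16 and 38 cells, 0.866% and 0.945%), with the middle tertile in the fit. In library 1 the upper tertile was also deeper, with a median of 5947.5 UMIs, against 3557.5, while in library 2 the medians were 3695 and 3514.5. Of 3127 genes that passed the filter, 27 were higher in the upper tertile (0.863%) and 3 lower (0.0959%), 0.959% in all, around a median log2 fold of -0.01. Iapp had 4559 and 8343 CPM in the upper tertile, 3122 and 3873 CPM in the middle tertile and 1638 and 2687 CPM in the lower tertile, a log2 fold of 1.56 ± 0.15 for upper over lower (edgeR adjusted p = 2.13e-05). Nnat had 6213 and 7976 CPM in the upper tertile, 2959 and 3321 CPM in the middle tertile and 3628 and 2974 CPM in the lower tertile (1.11 ± 0.15, adjusted p = 0.000476). Scg2 had 705 and 764 CPM in the upper tertile, against 138 and 213 CPM in the lower (2.01 ± 0.32), with a call lost after thinning. For each of these genes the upper tertile was above the lower in both libraries.

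Npy UMIs lay mostly in the upper tertile, which held 27 and 92. The middle tertile held 1 and 1, and the lower 2 and 17, of which 14 in library 2 came from 1 barcode. Levels were 328 and 717 CPM in the upper tertile, 20.4 and 7.78 CPM in the middle and 30.6 and 125 CPM in the lower. With so few UMIs outside the upper tertile, Npy is given as a description, without a fold. It was found in few cells: 5 of 16 and 18 of 38 cells of the upper tertile had an Npy UMI, against 2 of 16 and 3 of 38 cells of the lower tertile, and single cells held up to 14 and 32 UMIs. In sums over cells, more cells with a transcript and more transcript per cell cannot be told apart.

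The endoplasmic reticulum list leaned the same way, but 1 of 38 tested genes passed. That gene was Calr, with 3404 and 3641 CPM in the upper tertile, against 1806 and 1789 CPM in the lower (0.97 ± 0.15, adjusted p = 0.00153). In all, 34 of the 38 folds were positive, with a list median of 0.64, and the list's summed level was 23491 and 29508 CPM in the upper tertile, 20783 and 23165 CPM in the middle tertile, and 17073 and 17093 CPM in the lower tertile. Atp2a2 had 1969.7 and 2191 CPM in the upper tertile, against 1286 and 1237 CPM (0.73 ± 0.17, adjusted p = 0.049), a call lost under 5 of 9 alternatives. None of the 8 tested beta-lineage factors passed. Pdx1 had 279.6 and 468 CPM in the upper tertile, against 413 and 721 CPM in the lower (-0.60 ± 0.28, adjusted p = 0.586). Across single cells thinned to 1000 UMIs, the Spearman correlation with the insulin share was 0.667 and 0.535 for Iapp, 0.428 and 0.417 for Nnat, and 0.384 and 0.446 for Calr, over 47 and 114 cells that share depth and library. The heat shock gene Hspa8 had -0.532 and -0.195. Immediate-early and heat shock genes together stood at 3923 and 5335 CPM in the upper tertile, 4537 and 6726 CPM in the middle tertile, and 6995 and 7843 CPM in the lower tertile, though none of the 15 tested passed, and their part in the comparison was not tested.

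The 3 genes called lower in the upper tertile had few UMIs there. Peg10 had 3 and 5 UMIs, against 22 and 23 in the lower tertile (36.5 and 39.0 CPM, against 337 and 169 CPM). The growth factor gene Mdk had 6 and 6 UMIs, against 13 and 48 (a mean of 59.9 CPM, against 276 CPM). The annotated pseudogene 1700086L19Rik had 8 and 8 UMIs, against 30 and 55 (97.3 and 62.4 CPM, against 459 and 405 CPM). With so few UMIs in the upper tertile these counts are a description, and no fold is given. The calls of Peg10 and Mdk were lost in DESeq2, that of Peg10 also among barcodes of at least 2000 UMIs, and that of 1700086L19Rik after thinning. Gcg did not pass, with 2 and 9 UMIs in the upper tertile, against 26 and 16 UMIs in the lower, of which 19 of the 26 in library 1 came from 1 barcode.

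Further genes that differed lay outside the lists. Among those called higher against all other cells were Tceal6, with 84 and 72 UMIs in the gate, against 4 and 4 UMIs in the other cells, and Defb9, annotated as a beta-defensin, with 86 and 88 UMIs in the gate, against 4 and 6 UMIs. With so few UMIs in the other cells, both passed the filter through the gate alone, so their counts are a description and no fold is given. The same holds for Trp73os, with 33 and 70 UMIs in the gate, against 8 and 13 UMIs in the other cells. It also holds for Fam83e (38 and 87, against 10 and 20 UMIs) and Syndig1l (33 and 45, against 9 and 21 UMIs). Other genes called higher were Ppp1r1a (4.70), the olfactory receptor gene Olfr1442 (4.10) and Cpne5 (4.03). Within the gate, Defb9 had 79 and 63 UMIs in the upper tertile, against 1 and 6 UMIs in the lower, Tceal6 had 70 and 45 UMIs, against 3 and 5 UMIs, and Fam83e had 27 and 65 UMIs, against 4 and 7 UMIs. These too are a description, since the lower tertile holds so few UMIs. Cpne5 and Olfr1442 were called higher (2.80 and 2.42, the second with a call lost after thinning).

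These genes were also counted per insulin UMI. The gate and the tertiles were formed on insulin, so a gene that rises less than insulin must have a higher ratio where insulin is low. The ratios are therefore a description. Fam83e gave 0.514 and 0.567 UMIs per 100 insulin UMIs in the upper tertile, 0.673 and 0.430 in the middle tertile, and 0.828 and 0.583 in the lower tertile, on 4 to 65 UMIs a tertile. Iapp gave 7.13 and 9.33 UMIs per 100 insulin UMIs in the upper tertile, 14.7 and 14.3 in the middle tertile, and 22.1 and 30.4 in the lower tertile. For Defb9 and Tceal6 the ratios were 1.27 and 0.545 (Defb9) and 1.24 and 0.446 (Tceal6) UMIs per 100 insulin UMIs in the gate, against 1.63 and 1.56 (Defb9) and 1.63 and 1.04 (Tceal6) in all other cells, where they rest on 4 to 6 UMIs per library. Fam83e gave 0.561 and 0.539 in the gate, against 4.07 and 5.20 in all other cells. None of the 30 genes called between tertiles shared a run of 30 bases with an Ins1 or Ins2 transcript in the GENCODE M21 annotation of GRCm38, whereas Ins1 and Ins2 share 50 such runs with each other. What part assignment of reads or molecules had in these levels was not tested.

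**Figure D5:**
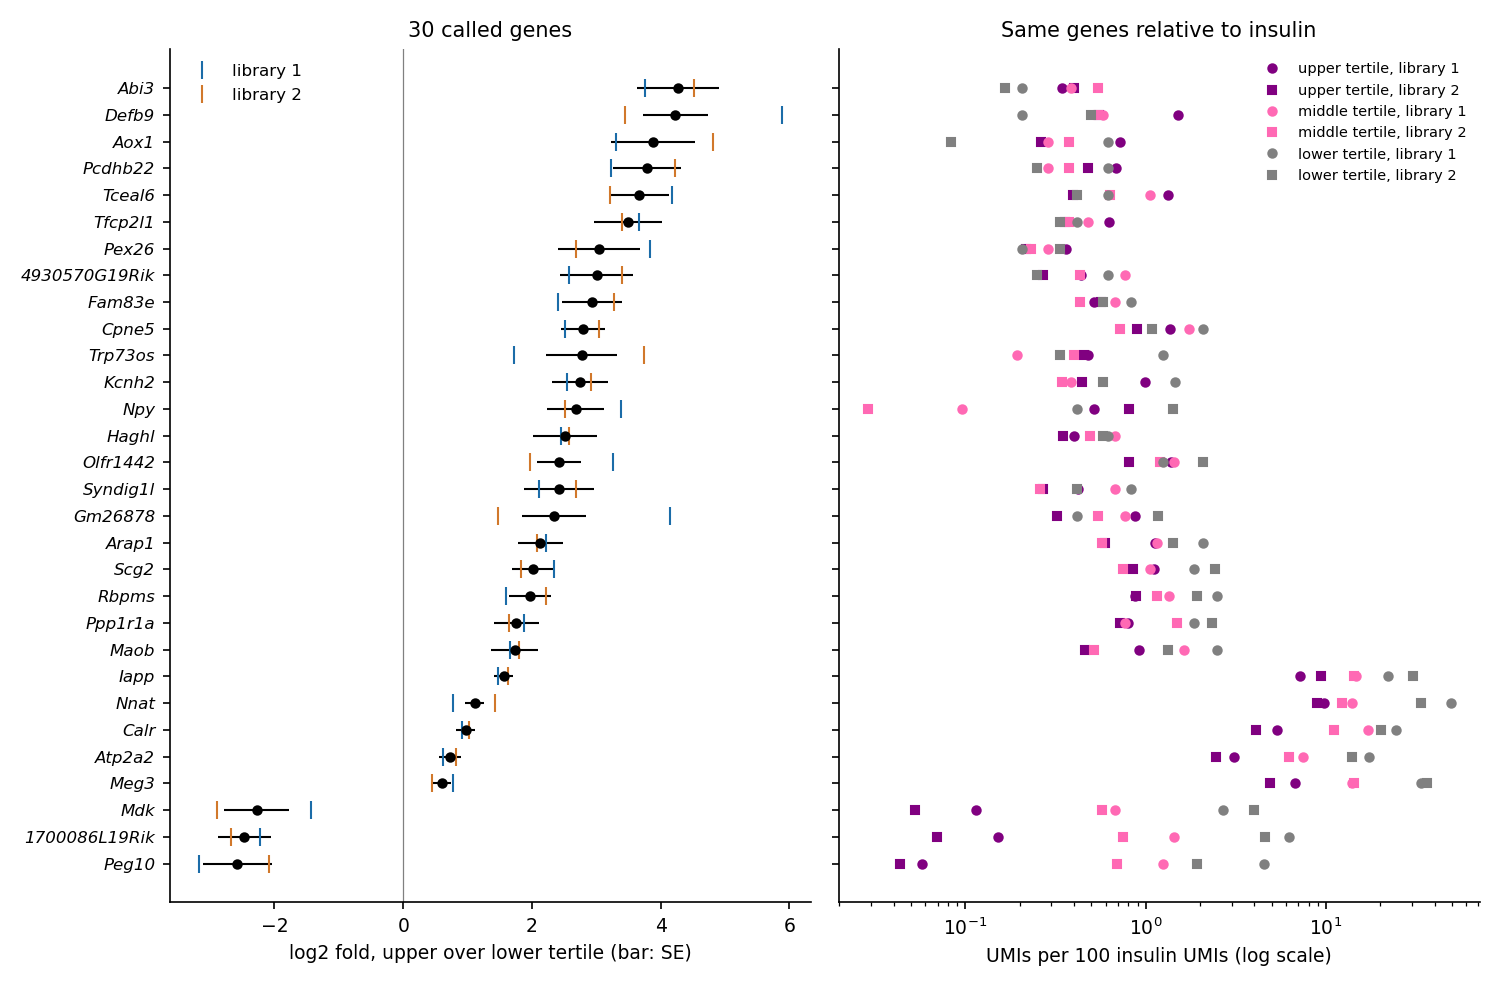
The 30 genes called between the upper and lower insulin tertile, with (left) the log2 fold of upper over lower tertile and its SE (black) and the fold of each library (blue and orange ticks), and (right) UMIs of the same genes per 100 insulin UMIs (logarithmic axis) in the upper, middle and lower tertile of each library. Iapp, Nnat, Calr, Atp2a2 and Meg3 lie further right in the lower tertile, and for Fam83e the ratios lie between 0.430 and 0.828. The tertiles were formed on insulin, so a gene that rises less than insulin must lie further right in the lower tertile.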

How the data were processed

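Single cells were captured by inDrop, made into libraries by a CEL-Seq based protocol and sequenced on a NextSeq500, per the labels' protocols. The authors deposited UMI counts per gene and barcode, as whole numbers and not normalized. Build GRCm38 is named per the submitters' processing notes. The aligner, counter, annotation and strandedness were not given in the sources used here.

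From these counts, barcodes were gated as described (no column was left unused). The other classes, assigned in turn, were a glucagon gate (at least 5 Gcg UMIs), a Ghrl and Pyy gate (at least 10 together), a Chgb gate (at least 5, Sst under 10), a Neurog3 gate (at least 5) and the remainder. Macrophage-marked barcodes (at least 10 UMIs of markers) served for background. UMIs were summed per library and class and tested in edgeR 4.0.16 (R 4.3.3) with quasi-likelihood, TMM scaling without the 6 genes of the gate, the filter filterByExpr, the library as a block and Benjamini-Hochberg adjustment. Summed levels of lists, and levels near the threshold of the gate, are CPM without TMM scaling. Residual degrees of freedom were 1 against all other cells, 5 against the glucagon and Chgb gates and 2 between tertiles. The library block follows the labels' numbers, which mark the library that holds both groups. Scrublet calls (scanpy 1.11.5) were kept. Limits for a count of 0 use 3 counts, and intervals are 95% exact binomial. On simulated data with 200 changed genes, 2-fold changes were recovered in 28%, 13%, 16% and 17% of genes (in the order of the comparisons) and 4-fold changes in 66%, 60%, 66% and 68%. False calls were 12 of 106, 6 of 79, 3 of 85 and 1 of 86 calls. Symbols matched GENCODE M21 for 24334 of 25507 genes (95.4%), and promoters came from RefSeq.

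Named genes were every member of the beta-lineage factor, granule and hormone lists, the 3 lowest adjusted p of each other list, and the 8 largest rises and falls outside the lists with at least 50 CPM, excluding Gm and Rik symbols. Further list members and further genes between tertiles were chosen after their values were seen. The members and lists were chosen with earlier results of these data known. Results on some genes are not reported here.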

Additional observations from a re-analysis of the deposited data

How the results depend on the processing

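Of 3838 values recomputed for 356 results, 3567 were labelled the same, 177 lost a call and 16 gained one. A further 78 moved and 0 were labelled reversed, a label open only to genes that were called. Same meant the same side of the threshold, or no adjusted p in DESeq2. Single-library folds have no test, and were labelled the same within the SD of the 2 libraries' folds around the main fold. These were 336 without library 1 and 298 without library 2. Against all other cells, 1123 genes were called by edgeR, 437 by DESeq2, 479 after thinning every barcode to 1000 UMIs, and 725 with equal weight of the 5 other classes. Against the glucagon gate, 295 calls became 155 in DESeq2 and 118 after thinning, and without a filter they split into 218 higher and 93 lower. Against the Chgb gate, 308 calls became 171 in DESeq2 and 132 after thinning. Between tertiles, 30 calls became 18 in DESeq2, 8 after thinning, where 437 genes could be tested, and 51 (41 higher, 10 lower) when tertiles were formed from thinned insulin UMIs. With no replicate block the calls were 999 against all other cells, 184 against the glucagon gate, 205 against the Chgb gate and 36 between tertiles. The cause of these changes was not tested, except that thinning leaves fewer UMIs and genes. The share of barcodes in the gate lay between 7.58% and 10.8% in library 1 and between 9.34% and 11.5% in library 2. Leaving out a library leaves 1 sum per class and no test against other classes, so counts of calls without a library were not computed. Of the 78 values that moved, 20 did so without library 1 and 58 without library 2. Single-library folds are given in the text for Iapp against the glucagon gate only. Of 109, 64, 72 and 22 named calls in the 4 comparisons, 74, 42, 44 and 12 were not lost under any alternative run. A gene that an alternative did not test, or that had no adjusted p in DESeq2, counted as not lost. With 2 libraries and as few as 15 cells a tertile, power was low. Most 2-fold changes and a part of the 4-fold changes were missed in the simulated data. A gene that was not called may therefore still differ by 2-fold or more.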

Other observations

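Imprinted genes did not move together in the insulin-gated cells. Of 23 tested, 5 were higher and 6 lower against all other cells, beside 4.08% and 3.58% of all genes, and between tertiles 2 of 15 were higher and 1 lower. Nnat and Peg10 moved in opposite directions against the glucagon gate, with log2 folds of 4.57 and -3.76. Between tertiles, Nnat was higher in the upper tertile (1.11). Peg10 had 36.5 and 39.0 CPM in the upper tertile, 265 and 187 CPM in the middle and 337 and 169 in the lower. With 3 and 5 Peg10 UMIs in the upper tertile these levels are a description, and its call between tertiles was lost in DESeq2.

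Gip, which encodes an incretin hormone of the gut, was found in 16 of 47 and 14 of 114 gated cells (39 and 30 UMIs, median depths 4173 and 3522.5 UMIs). It was found in 1 of 77 and 1 of 111 Chgb-gated cells (4 and 2 UMIs, median depths 3293 and 2984 UMIs) and in 0 of 7 and 0 of 47 macrophage-marked barcodes (median depths 2724 and 2970 UMIs), which allows shares of up to 42.9% and 6.38%. With so few UMIs outside the gate these counts are a description, and the edgeR call against the Chgb gate was lost in DESeq2.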
